A study of Homo sapiens with 19 samples.

Results

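Gene expression in A549 spheroids 2 h after nanostraw electroporation (NEE) was compared with that in A549 spheroids lysed before it. A549 is an established human lung adenocarcinoma cell line, and spheroids are small three-dimensional aggregates of its cells. In NEE, hollow nanoscale tubes and short electric pulses open the cell membrane so that RNA can be drawn out of living cells. The 2 h group and the group before NEE each held 2 libraries, labelled as biological replicates 1 and 2, and no other genotype or agent is given for either. They belong to a series of 19 libraries, of which 16 are lysates of whole spheroids or flat monolayers, taken before NEE or right after, 2 h after or 24 h after it. The labels give no group that was handled but spared NEE, and a difference at 2 h includes any that came with handling or with time in culture. Of 62700 genes listed, 13270 (21.2%) had at least 1 CPM (a count scaled to its library's total) in at least 2 of the 4 libraries and were kept. Of these 11804 are protein coding and 917 are long non-coding, and 11432 stood at 1 CPM or more in all 4 libraries. A further 147 were kept solely through both 2 h libraries and 104 solely through both libraries before NEE, so these genes had to differ between the groups.

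Opening the membrane of an epithelial cell lets calcium in and ions and metabolites out, and cells answer within minutes to hours by transcribing immediate early genes, whose products include the AP-1 factors of the FOS and JUN families and the orphan nuclear receptors of the NR4A family. Stretch, changes in shape and loss of contact act partly through YAP and TAZ, coactivators that bind TEAD factors and drive genes such as CCN1, CCN2 and AMOTL2. The aryl hydrocarbon receptor (AhR) is a ligand-activated factor that binds DNA with ARNT at a core sequence, GCGTG, and in lung epithelium it induces cytochrome P450 genes and its own repressors, among them TIPARP.

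Promoters of genes with both 2 h libraries above both libraries before NEE are shown first, as the 250 bases before a transcription start given by RefSeq on GRCh38.p14, 5′ to 3′ along the gene's strand. CYP1A1 (chr15:74725529-74725778, minus strand) and TIPARP (chr3:156674340-156674589, plus strand, 1 of 3 windows listed for the gene) are shown for the AhR core, and capitals mark GCGTG or its reverse complement.
CYP1A1: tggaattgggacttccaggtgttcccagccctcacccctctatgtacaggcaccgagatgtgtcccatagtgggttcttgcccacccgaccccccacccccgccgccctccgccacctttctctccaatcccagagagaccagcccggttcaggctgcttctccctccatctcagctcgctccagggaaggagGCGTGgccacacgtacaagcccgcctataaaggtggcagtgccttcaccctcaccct
TIPARP: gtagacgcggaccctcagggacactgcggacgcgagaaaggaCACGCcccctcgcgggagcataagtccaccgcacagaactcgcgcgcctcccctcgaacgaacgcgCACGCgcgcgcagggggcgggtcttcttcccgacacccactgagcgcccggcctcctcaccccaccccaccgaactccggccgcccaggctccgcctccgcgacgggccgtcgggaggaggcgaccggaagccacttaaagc

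CCN2 (chr6:131951373-131951622, minus strand) and AMOTL2 (chr3:134374448-134374697, minus strand, 1 of 2 windows) are shown for the TEAD core, and capitals mark GGAATG or its reverse complement. PPP1R15A (chr19:48872171-48872420, plus strand) is shown for the cAMP response element, to which ATF and CREB factors bind, with TGACGTCA in capitals.
CCN2: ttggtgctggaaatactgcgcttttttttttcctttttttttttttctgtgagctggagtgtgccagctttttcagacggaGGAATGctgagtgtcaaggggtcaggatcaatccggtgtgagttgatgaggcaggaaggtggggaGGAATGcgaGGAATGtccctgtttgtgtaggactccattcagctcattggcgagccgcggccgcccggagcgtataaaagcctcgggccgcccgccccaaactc
AMOTL2: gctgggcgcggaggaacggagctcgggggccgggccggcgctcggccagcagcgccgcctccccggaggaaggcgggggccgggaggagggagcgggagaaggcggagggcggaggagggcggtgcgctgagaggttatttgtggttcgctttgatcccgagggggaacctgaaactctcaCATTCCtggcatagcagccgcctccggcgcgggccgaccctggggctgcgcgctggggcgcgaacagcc
PPP1R15A: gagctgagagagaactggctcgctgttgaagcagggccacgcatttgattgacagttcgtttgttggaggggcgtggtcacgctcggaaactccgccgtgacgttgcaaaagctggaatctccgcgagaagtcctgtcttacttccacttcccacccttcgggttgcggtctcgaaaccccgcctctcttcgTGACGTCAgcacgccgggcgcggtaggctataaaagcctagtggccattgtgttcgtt

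These letters are common in promoters, and a match is not a binding site. On either strand, GCGTG was found in 43.2% of the 14904 windows of 10155 kept genes, GGAATG in 9.85% and TGACGTCA in 2.54%. Counted by gene, GCGTG was in a window of 5 of 6 AhR targets, against 53.3% of kept genes, and CYP1B1 had no window. It was also in 3 of 3 EGR and NR4A factors and 12 of 20 other immediate early genes. For AP-1 subunits it was in 4 of 8, and for YAP and TAZ targets in 5 of 17. GGAATG was in a window of 7 of 17 YAP and TAZ targets, against 13.1% of kept genes. TGANTCA, the AP-1 site, was in 4.56% of windows and the serum response element known as the CArG box in 0.993%. Counted by gene, TGANTCA was in 0 of 8 AP-1 subunits, 0 of 3 EGR and NR4A factors and 0 of 20 other immediate early genes. It was in 1 of 17 YAP and TAZ targets, against 6.20% of kept genes. In the first 3 of these lists, the CArG box was in 0, 0 and 1 genes (1.39% of kept genes) and TGACGTCA in 1, 0 and 2 (3.55%). None of these motifs contains another, and a window can hold several, as in PPP1R15A, where GCGTG is also present in lower case.

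The 4 libraries held 16031034 to 18108686 counts over genes, so that 3 counts correspond to 0.166 to 0.187 CPM, and 12849 to 13099 genes reached 1 CPM in a library. Reads come from PCR without molecular identifiers, so floors cover counting error only. The 9 kept of 14 A549 markers summed to 31757 and 42922 CPM at 2 h and 32423 and 46384 CPM before. This sum was led by the keratins KRT8 and KRT18 and the enzymes ALDH1A1 and AKR1B10. Other markers were low, with EPCAM at 2.35 and 5.15 CPM at 2 h against 3.36 and 11.5 CPM before. NAPSA, SFTPB and SFTPC were not kept. NKX2-1, the lung lineage factor, and TFF3 were at 0 in all 16 lysates. Natural killer and T cell markers, of which 7 of 18 were kept, summed to 21.9 and 17.9 CPM at 2 h and 17.3 and 19.1 CPM before. Fibroblast markers, 3 of 8 kept, summed to 9.99 and 10.6 CPM at 2 h and 5.68 and 6.51 CPM before, macrophage markers (2 of 8) to 79.1 and 52.7 against 98.1 and 50.7 CPM, and endothelial markers (2 of 6) to 74.9 and 75.4 against 57.6 and 86.4 CPM. Replicate 1 of the monolayers before NEE holds natural killer and T cell transcripts, with the perforin gene PRF1 at 194 CPM there, against 8.78 and 6.66 CPM in the spheroids at 2 h and 4.06 and 7.04 CPM in those before. This library enters the fit solely through the shared estimate of spread and the comparison with monolayers, and without it edgeR called the same 2 genes in spheroids as with it.

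TIPARP and CYP1B1 rose in spheroids 2 h after NEE. All levels are CPM scaled by the trimmed mean of M-values (TMM), with replicate 1 before replicate 2. TIPARP, an ADP-ribosyltransferase that limits AhR signalling (ENSG00000163659, chr3:156673235-156706770, GRCh38), stood at 458 and 390 CPM at 2 h, against 63.1 and 62.7 CPM before. CYP1B1, a cytochrome P450 that oxidises polycyclic hydrocarbons and estrogens (ENSG00000138061, chr2:38066973-38109902), stood at 746 and 618 CPM at 2 h, against 84.0 and 104 CPM before. In both genes the lower 2 h library lay far above the higher library before NEE, and the 2 libraries of a group were close. The log2 fold change was 2.75 ± 0.22 (SE, n = 2 against 2, edgeR quasi-likelihood test with Benjamini-Hochberg adjustment over 13270 genes, adjusted p = 0.000154) for TIPARP. It was 2.86 ± 0.35 (SE, n = 2 against 2, edgeR adjusted p = 0.0138) for CYP1B1. TIPARP was called with each of the 4 libraries left out in turn (edgeR adjusted p = 0.00127 to 0.0133). CYP1B1 was not called without replicate 1 at 2 h (edgeR adjusted p = 0.148), without replicate 1 before (edgeR adjusted p = 0.641) or without replicate 2 before (edgeR adjusted p = 0.236), nor in the 8 spheroid libraries alone (edgeR adjusted p = 0.0714). In the 4 libraries alone neither was called (edgeR adjusted p = 0.0886 for each).

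These 2 genes were 0.0151% of those tested, and 0 (0.0%) were called lower. By edgeR's p before adjustment, 255 genes were higher (1.92%) and 177 lower (1.33%) at the 0.05 threshold, and 49.5% of all genes had a fitted change above 0. DESeq2 called 26 genes higher (0.196%) and 8 lower (0.0603%). The replicate number is the labels' batch tag, though what the tag marks is not known, and with it as a block within each culture edgeR called 5 genes higher, adding FOSB (adjusted p = 0.012), NR4A1 (adjusted p = 0.0434) and TNFRSF12A, a receptor of the tumour necrosis factor family (adjusted p = 0.012). A further description without a test counts genes whose lower library in the higher group was at least 2 times the higher library of the other group, after 0.5 CPM was added. There were 116 such genes higher at 2 h (0.874%) and 63 lower (0.475%), called well separated below. Of the 116, 54 had been kept solely through the 2 h libraries, and of the 63, 40 solely through the libraries before NEE.

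**Figure D1:**
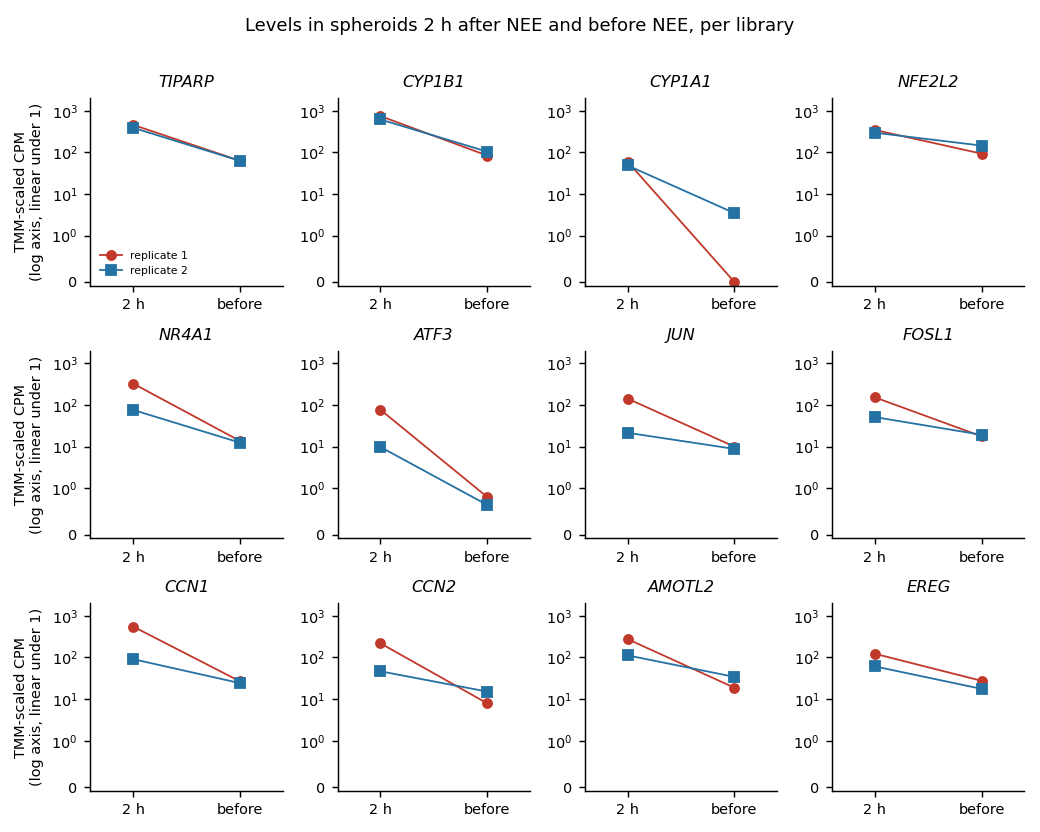
Levels of 12 genes in the 4 libraries, in TMM-scaled CPM on a log axis that is linear under 1, with replicate 1 as red circles and replicate 2 as blue squares. Lines join libraries of the same replicate number. TIPARP, at 458 and 390 CPM at 2 h, and likewise CYP1B1, CYP1A1 and NFE2L2 have near-equal levels in the 2 libraries at 2 h, whereas NR4A1, ATF3, JUN and CCN1 are several times higher in replicate 1.

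Other AhR targets were higher in both 2 h libraries without passing the test. CYP1A1, the classical AhR-induced P450, stood at 59.5 and 48.6 CPM at 2 h, against 0 and 3.49 CPM before (log2 fold change 4.95, edgeR adjusted p = 0.989). NFE2L2, which encodes the antioxidant factor NRF2, stood at 345 and 296 CPM at 2 h, against 93.1 and 146 CPM before (log2 fold change 1.43 ± 0.28, edgeR adjusted p = 0.382, DESeq2 adjusted p = 0.00477). The groups did not overlap for either gene. ALDH1A3, a retinaldehyde dehydrogenase, was at 6.72 and 11.5 CPM at 2 h, against 2.32 and 5.12 CPM before. ALDH3A1 and NQO1, detoxifying enzymes that A549 cells express at a high level, overlapped between the groups, with 4912 and 9438 CPM at 2 h against 5173 and 11409 CPM before for ALDH3A1, and 2889 and 5254 CPM against 2659 and 4777 CPM for NQO1. Of 12 listed targets 8 were kept and 7 had a fitted change above 0, against 49.5% of all genes. Of the 8, 2 were called, against 0.0151% of all genes, and 4 were well separated upward, against 0.874%. The median log2 fold change was 1.36, against 0.00 over all genes. The 2 called were TIPARP and CYP1B1, which were given for this comparison. Members were chosen with earlier results of these data known, so these shares are no test of the list. The same holds for the lists below that hold FOSB, NR4A1, CCN1 or AMOTL2. AHRR, the receptor's repressor, had 2 and 5 counts at 2 h and 0 and 4 before, and was not kept. The receptor gene AHR stood at 27.3 and 18.5 CPM at 2 h, against 11.9 and 15.8 CPM before, and its partner ARNT at 101 and 74.4 CPM, against 90.8 and 62.3 CPM. Of the 7 genes of the receptor complex, 4 had a fitted change above 0, with a median of 0.05 that ranged from −0.05 to 0.01 with each of the 4 libraries left out.

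Of 10 kept AP-1 subunit genes, 7 had both 2 h libraries above both libraries before NEE, against 14.6% of all genes, and none passed the edgeR test. FOSB, a FOS-family subunit (ENSG00000125740, chr19:45467995-45475179), had 859 and 95 counts at 2 h and 0 in both libraries before NEE, or 49.3 and 5.97 CPM against 0. Against 3 counts over the group before NEE, it was at least 566-fold higher in replicate 1 and at least 68.6-fold higher in replicate 2. ATF3, a stress-induced repressor and AP-1 partner, stood at 77.0 and 9.81 CPM at 2 h, against 0.812 and 0.640 CPM before. JUN, the founding JUN subunit, stood at 141 and 21.4 CPM at 2 h, against 9.98 and 8.78 CPM before. In each of these genes both 2 h libraries lay above both libraries before NEE, and replicate 1 was 8.26 times replicate 2 for FOSB, 7.85 times for ATF3 and 6.60 times for JUN at 2 h. FOSL1, a FOS relative of growing epithelium, stood at 152 and 51.0 CPM at 2 h, against 17.6 and 19.2 CPM before. MAFF, a small MAF factor, stood at 51.7 and 22.8 CPM at 2 h, against 7.60 and 6.22 CPM before. FOS itself overlapped between the groups, with 60.0 and 12.3 CPM at 2 h against 19.8 and 15.9 CPM before, and MAFG was near-equal between replicates, with 67.6 and 68.4 CPM against 36.2 and 36.4 CPM. None was called by edgeR (adjusted p = 0.124 for FOSB, 0.419 for ATF3 and FOSL1), whereas DESeq2 called FOSB, ATF3 and FOSL1. Of 13 listed subunits 10 were kept, and each of the 10 had a fitted change above 0, against 49.5% of all genes. The 5 well separated upward, against 0.874% of all genes, were FOSB, ATF3, JUN, FOSL1 and MAFF. FOSB and ATF3 were kept solely through the 2 h libraries, so their direction was set by the rule for keeping genes. The median log2 fold change was 2.33, also with FOSB at its bound, and 1.20 to 2.85 with each library left out.

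NR4A1, the orphan receptor Nur77 (ENSG00000123358, chr12:52022832-52059507), stood at 326 and 75.9 CPM at 2 h, against 13.7 and 12.4 CPM before (log2 fold change 3.94 ± 0.65, edgeR adjusted p = 0.143). Its relative NR4A2 stood at 34.2 and 11.2 CPM at 2 h, against 11.1 and 6.75 CPM before. NAB2, a corepressor that EGR factors induce, had log2 ratios of 2 h to before of 3.37 in replicate 1 and 1.10 in replicate 2. NAB1 followed with 30.4 and 14.3 CPM at 2 h, against 9.16 and 7.44 CPM before. In all 4 genes, the ones kept of 9 listed, both 2 h libraries lay above both libraries before, against 14.6% of all genes. Of the 4, 2 (NR4A1, a given gene, and NAB2) were well separated upward, against 0.874% of all genes. The EGR genes themselves were not kept, as at most 1 of the 4 libraries reached 1 CPM for each, and for EGR1 and EGR2 it was replicate 1 at 2 h. EGR1, a zinc finger activator of growth genes, had 80 and 0 counts at 2 h and 2 and 16 before, EGR2 had 86 and 0 against 2 and 0, and EGR3 had 8 and 0 against 0 and 0. NR4A3 had 61 and 9 counts at 2 h and 0 and 6 before. IL11, a cytokine gene on a separate list of MAPK targets, had 120 and 2 counts at 2 h and 0 in both before.

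**Figure D2:**
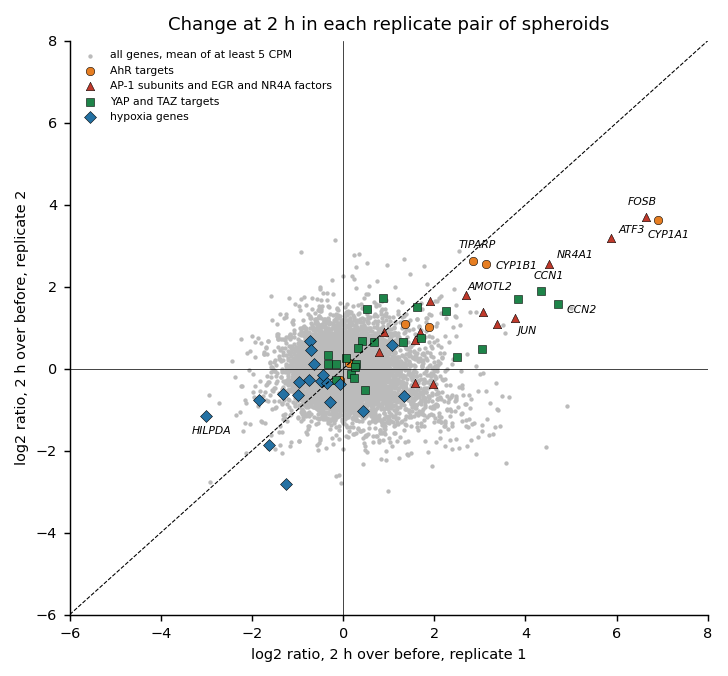
Log2 ratio of the 2 h level to the level before NEE (each plus 0.5 CPM) in replicate 1 (horizontal) and replicate 2 (vertical), for genes with a mean of at least 5 CPM (grey) and for kept members of 4 lists at any level (coloured). The dashed line marks equal ratios. TIPARP (2.85 and 2.63) lies near it. The AhR target CYP1A1 (6.91 and 3.62), CCN1 (4.34 and 1.89), ATF3 (5.88 and 3.18) and JUN (3.76 and 1.24) lie below it, toward replicate 1.

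Among other immediate early genes, MYC, the growth-promoting transcription factor, stood at 315 and 206 CPM at 2 h, against 82.3 and 99.4 CPM before. PPP1R15A, which returns the stress-phosphorylated initiation factor eIF2 to its active state and whose promoter is printed above, stood at 594 and 242 CPM at 2 h, against 145 and 116 CPM before. ID2, an inhibitor of helix-loop-helix factors, stood at 97.7 and 68.1 CPM at 2 h, against 24.9 and 39.4 CPM before. In these 3 genes both 2 h libraries were above both libraries before, with edgeR adjusted p = 0.419, 0.419 and 0.568, and DESeq2 called MYC and PPP1R15A (adjusted p = 0.0102 for each). PTGS2, the inducible cyclooxygenase, overlapped between the groups, with 361 and 159 CPM at 2 h against 188 and 61.3 CPM before. Of 26 kept genes of 32 listed, 22 had a fitted change above 0, with a median of 0.65 (0.37 to 0.91 with each library left out). ID1 was lower in both 2 h libraries, with 82.2 and 104 CPM against 158 and 162 CPM (edgeR adjusted p = 1).

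Growth factor ligands and feedback genes of the epidermal growth factor receptor and MAP kinase pathway were compared next. EREG, which encodes the ligand epiregulin, stood at 123 and 61.0 CPM at 2 h, against 27.5 and 17.6 CPM before. AREG, which encodes amphiregulin, stood at 22.1 and 11.8 CPM at 2 h, against 4.93 and 3.43 CPM before. Both were well separated upward (log2 fold changes of 2.03 ± 0.45 and 2.02 ± 0.47, edgeR adjusted p = 0.435 and 0.447), and DESeq2 called both. HBEGF was high in replicate 1 at 2 h, with 9.07 and 0.943 CPM against 0.232 and 1.16 CPM before, and TGFA overlapped, with 37.3 and 61.3 CPM against 41.5 and 55.4 CPM. Of 15 kept feedback inhibitors of MAP kinases, 13 had a fitted change above 0, with a median of 0.42. PHLDA1 stood at 190 and 112 CPM at 2 h against 53.5 and 58.7 CPM before, and DUSP4, a nuclear MAP kinase phosphatase, at 462 and 414 CPM against 330 and 343 CPM. DUSP1, an immediate early phosphatase, was at 580 and 139 CPM at 2 h against 184 and 100 CPM before, so that replicate 2 at 2 h lay between the libraries before NEE. PPARG, a nuclear receptor of lipid metabolism, was among the 12 higher genes of smallest p, with 158 and 98.2 CPM at 2 h against 47.8 and 51.0 CPM before (edgeR adjusted p = 0.371).

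YAP and TAZ targets were led by CCN1, CCN2 and AMOTL2. CCN1, a matricellular protein (ENSG00000142871, chr1:85580761-85583962), stood at 554 and 91.2 CPM at 2 h, against 26.8 and 24.2 CPM before. CCN2, the connective tissue growth factor, stood at 220 and 46.6 CPM at 2 h, against 7.95 and 15.2 CPM before. AMOTL2, an angiomotin that binds and restrains YAP (ENSG00000114019, chr3:134355874-134375479), stood at 276 and 112 CPM at 2 h, against 18.8 and 34.2 CPM before. In all 3 the groups were well apart and replicate 1 was the higher library at 2 h, by 6.07 times for CCN1, 4.71 times for CCN2 and 2.45 times for AMOTL2. Their log2 fold changes were 3.66 ± 0.74, 3.52 ± 1.00 and 2.87 ± 0.51 (SE, n = 2 against 2, edgeR adjusted p = 0.419, 0.823 and 0.217). AJUBA, a LIM protein that inhibits LATS kinases, stood at 165 and 52.6 CPM at 2 h, against 28.5 and 42.9 CPM before. LATS2, a kinase that restrains YAP, stood at 6.03 and 4.21 CPM at 2 h, against 1.62 and 1.16 CPM before. Of 24 kept targets, 20 had a fitted change above 0, against 49.5% of all genes, and 5 were well separated upward, against 0.874%, with a median of 0.57 (0.25 to 1.23 with each library left out). The 5 were CCN1, CCN2, AMOTL2, LATS2 and GADD45B. GADD45B, at 16.8 and 11.4 CPM at 2 h against 3.13 and 3.95 CPM before, is also among the other immediate early genes listed above. Some YAP and TAZ targets followed the replicate number more than the time, such as AXL, a receptor kinase, with 714 and 312 CPM at 2 h against 796 and 288 CPM before, and IGFBP3, with 3809 and 946 CPM against 2745 and 1366 CPM. Among the pathway's own factors, YAP1 was at 12.3 and 8.23 CPM at 2 h against 11.0 and 7.21 CPM before, and WWTR1, which encodes TAZ, at 263 and 342 CPM against 248 and 267 CPM. In bulk libraries, more RNA per cell and more cells with the transcript cannot be told apart.

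How far the replicates matched was not the same from gene to gene. Among 25 well-separated named genes with a mean of at least 5 CPM at 2 h, the excess over the mean before NEE in replicate 2 ranged from 9.13% (JUN) to 330% (CHAC1) of that in replicate 1, with a median of 42.6%, and was under 50% for 13 genes. It was 82.8% for TIPARP, 80.4% for CYP1B1, 81.0% for CYP1A1 and 78.3% for NFE2L2. It was 12.1% for FOSB, 11.9% for ATF3, 12.4% for CCN1, 16.9% for CCN2 and 20.1% for NR4A1. It was between these for MYC (51.2%), AREG (42.6%), EREG (38.3%) and AMOTL2 (34.5%). DDIT3, at 86.1%, lay near the 4 AhR targets among these 25, and the YAP target LATS2, at 60.8%, lay between them and MYC. Some list members outside the 25 also differed from their group, with 260% for the AhR target ALDH1A3 and 103% for the AP-1 subunit MAFG. Others outside the 25 had little excess in replicate 2, with 0.46% for NRG1, 2.93% for HBEGF and 13.1% for AJUBA. The 25 had to be well separated, which leaves out genes with little excess in replicate 2. The difference between the groups was not tested. As list medians, the log2 ratio of replicate 1 to replicate 2 at 2 h was 1.51 for AP-1 subunits, 1.81 for EGR and NR4A factors, 0.98 for YAP and TAZ targets and −0.26 for AhR targets, against 0.00 over all genes. Before NEE the same medians were 0.19, 0.21, 0.46 and −0.91. Within replicates 1 and 2, the median log2 ratios of 2 h to before were 1.62 and 1.06 for AhR targets. They were 0.50 and 0.50 for YAP and TAZ targets, 2.33 and 1.31 for AP-1 subunits and 2.52 and 1.00 for EGR and NR4A factors. For CYP1A1, at 0 CPM in replicate 1 before NEE, these ratios were 6.91 and 3.62. How alike the replicates look for a list thus depends on the measure used. The 2 libraries at 2 h were not unlike overall: 9.16% of 10041 genes with a mean of at least 5 CPM were 2-fold or more apart, against 14.1% in the 2 libraries before NEE. Leaving out replicate 2 at 2 h gave 7 genes called higher by edgeR (TIPARP, CYP1B1, FOSB, NR4A1, CCN1, AMOTL2 and PPP1R15A) and 1 lower (DPYSL5), and leaving out replicate 1 gave TIPARP alone.

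**Figure D3:**
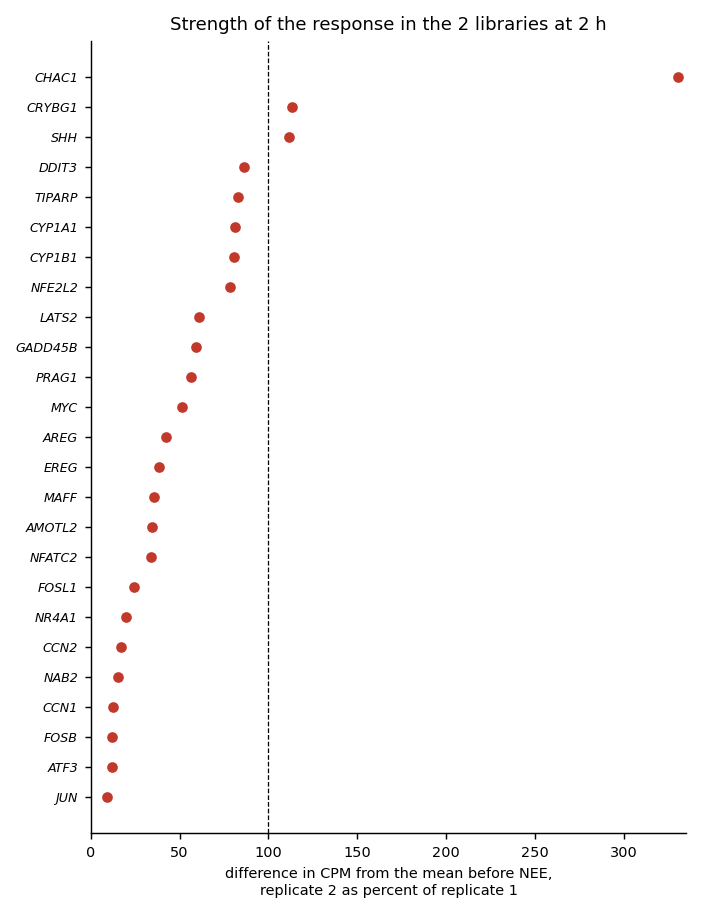
For 25 named genes whose levels were well separated upward, the difference in CPM between 2 h and the mean before NEE in replicate 2, as a percent of that in replicate 1. The dashed line marks equal responses. TIPARP, CYP1A1, CYP1B1 and NFE2L2 lie together at 78.3% to 82.8%, and JUN, ATF3, FOSB and CCN1 at 9.13% to 12.4%.

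Of the 25 genes, 3 (CHAC1, SHH and CRYBG1) had at least as large an excess in replicate 2 as in replicate 1. CHAC1, a glutathione-degrading enzyme of the ATF4 stress response, stood at 8.21 and 20.5 CPM at 2 h, against 2.96 and 2.79 CPM before (edgeR adjusted p = 0.806). DDIT3, the stress factor CHOP, stood at 11.7 and 10.7 CPM at 2 h, against 4.47 and 5.12 CPM before, and SLC7A5, an amino acid transporter, at 694 and 521 CPM against 345 and 389 CPM. DDIT4, an inhibitor of mTOR, lay the other way, with 479 and 568 CPM at 2 h against 2013 and 585 CPM before, the distance resting on 1 library before NEE. Of 16 kept ATF4 genes, 11 had a fitted change above 0, with a median of 0.31 that was 0.12 without replicate 1 at 2 h and 0.48 without replicate 2 before. SHH, the ligand sonic hedgehog, stood at 7.23 and 7.98 CPM at 2 h against 0.812 and 0.698 CPM before, and NFATC2, a calcium-regulated factor, at 15.4 and 5.78 CPM against 0 and 1.74 CPM. SHH and CRYBG1 were kept solely through the 2 h libraries, and neither SHH nor NFATC2 was called (edgeR adjusted p = 1 for each).

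Genes of ribosome biogenesis had small fitted changes, most of them above 0. Of 25 genes, 21 had a fitted change above 0, against 49.5% of all genes, and 16 did not overlap between the groups upward, against 14.6% of all genes, with a median log2 fold change of 0.45 that lay between 0.38 and 0.50 with each library left out. NOP56, a box C/D snoRNP core protein, stood at 248 and 208 CPM at 2 h, against 139 and 166 CPM before. NCL, which encodes nucleolin, stood at 603 and 624 CPM at 2 h, against 456 and 459 CPM before. None of the 25 was called by edgeR or DESeq2, and 2 (NOP56 and RRP12) had an unadjusted p under 0.05.

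**Figure D4:**
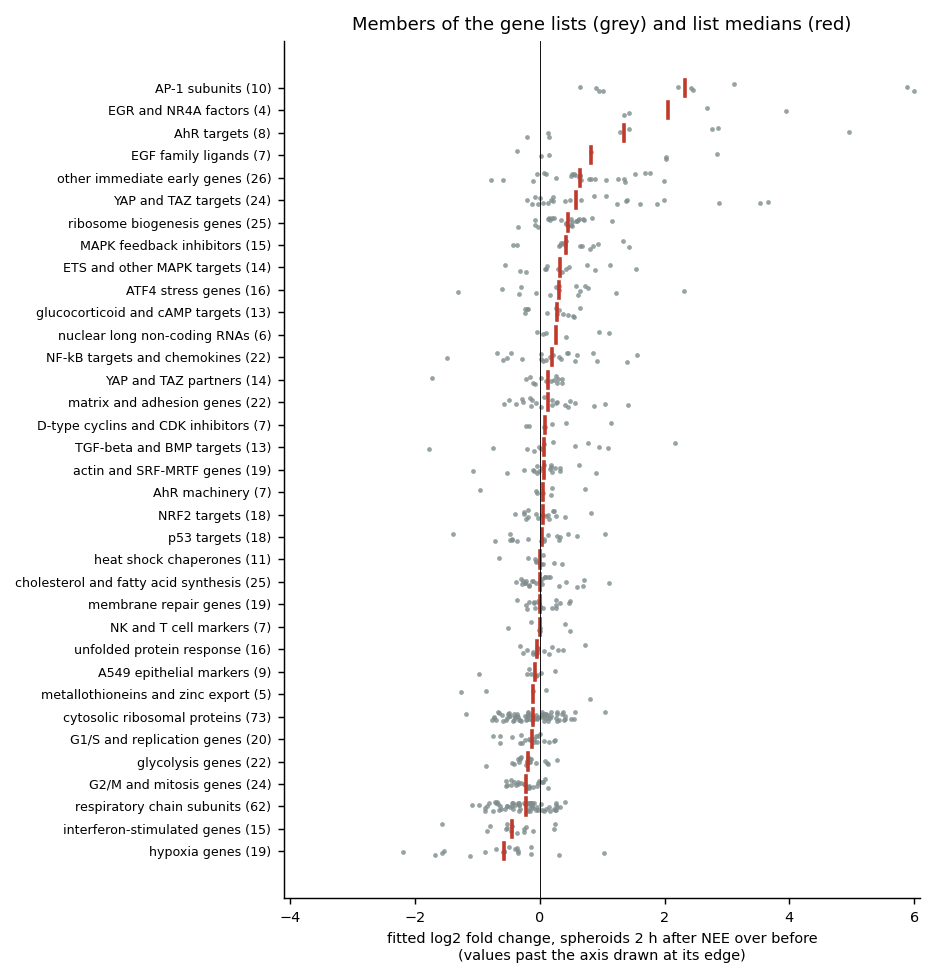
Fitted log2 fold change, spheroids 2 h after NEE over before, of kept members (grey points) of each gene list with at least 4 of them, and the list median (red bar), ordered by median with the number of members in brackets. AP-1 subunits are at the top with a median of 2.33 and hypoxia genes at the bottom with −0.58; FOSB lies past the right edge and is drawn on it.

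No gene fell by the edgeR test. Among the lower genes of smallest p, HILPDA, a hypoxia-induced lipid droplet protein (ENSG00000135245, chr7:128455849-128458418), stood at 44.7 and 69.1 CPM at 2 h, against 365 and 156 CPM before (log2 fold change −2.19 ± 0.54, edgeR adjusted p = 0.568, DESeq2 adjusted p = 0.0102). GAB1, a docking protein of receptor kinases, stood at 0.574 and 0.880 CPM at 2 h, against 5.80 and 6.16 CPM before (log2 fold change −3.03 ± 0.65, edgeR adjusted p = 0.419, DESeq2 adjusted p = 0.00452). GAB1 was kept solely through the libraries before NEE, so its direction was set by the rule for keeping genes. In both genes the 2 h libraries lay under both libraries before NEE, and for HILPDA the libraries at 2 h were closer to each other than those before. The zinc finger genes ZNF248, with 5.05 and 9.43 CPM at 2 h against 36.4 and 17.4 CPM, and ZNF266, with 4.88 and 8.55 CPM against 25.3 and 18.2 CPM, were also among them. Over 339 kept genes with ZNF symbols, a group chosen after its values were seen, 152 had a fitted change above 0, with a median of −0.08.

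Hypoxia genes had a median log2 fold change of −0.58, with 2 of 19 above 0, and none was called by edgeR. The median was −0.08 without replicate 1 before NEE, −0.31 without replicate 2 at 2 h, −0.92 without replicate 1 at 2 h and −1.02 without replicate 2 before. Of the 19 genes 3 did not overlap downward, a share near the 15.0% of all genes, and 1, HILPDA, was well separated downward, against 0.475% of all genes. EGLN3, a prolyl hydroxylase induced by low oxygen, stood at 52.8 and 33.4 CPM at 2 h, against 192 and 56.9 CPM before. PFKFB4, a regulator of glycolysis, stood at 52.2 and 6.35 CPM at 2 h, against 126 and 47.6 CPM before, and CA9, a surface carbonic anhydrase, at 299 and 102 CPM, against 312 and 132 CPM. Replicate 1 was above replicate 2 in 15 of the 19 genes at 2 h and in 16 before, with median log2 ratios of 0.78 and 1.11. The NF-κB list had the same division by replicate. SOD2, the mitochondrial superoxide dismutase, stood at 1904 and 239 CPM at 2 h against 2798 and 156 CPM before, and the chemokine gene CXCL8 at 345 and 44.8 CPM against 205 and 9.83 CPM. The NF-κB list's median change of 0.19 ranged from −0.63 to 1.60 with each library left out, in fits that also unbalance the replicates. Within replicates 1 and 2 its median log2 ratio of 2 h to before was 0.29 and 0.49. None of its genes was called by edgeR or DESeq2, and a change of the list with time was not tested.

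Subunits of the respiratory chain had small fitted changes, most of them below 0, and none was called by edgeR or DESeq2. Of 62 kept subunits, 14 had a fitted change above 0, against 49.5% of all genes, and 26 did not overlap downward, against 15.0% of all genes, with a median of −0.23 (−0.33 to −0.23 with each library left out). COX8A, a subunit of cytochrome oxidase, stood at 11.5 and 7.61 CPM at 2 h against 19.7 and 20.8 CPM before, and NDUFA1 of complex I at 27.9 and 18.2 CPM against 52.4 and 38.5 CPM. Mitosis genes had a median of −0.22 (−0.35 to −0.14 with each library left out), with 4 of 24 above 0, and AURKA, a spindle kinase, stood at 111 and 124 CPM at 2 h against 157 and 168 CPM before. Interferon-stimulated genes had a median of −0.44, with 2 of 15 above 0, which was −0.07 without replicate 1 before NEE, and OAS3, a sensor of double-stranded RNA, stood at 40.8 and 43.2 CPM at 2 h against 57.2 and 64.4 CPM before. None of these genes was called (edgeR adjusted p = 1 for COX8A, NDUFA1, AURKA and OAS3). Heat shock chaperones (median 0.01), unfolded protein response genes (−0.04), p53 targets (0.04), NRF2 targets (0.05), membrane repair genes (0.00) and cholesterol and fatty acid synthesis (0.01) had medians near 0 whose sign changed when a library was left out. Over the 38 lists, 20 medians kept their sign in each such fit and 18 did not.

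The libraries right after NEE and 24 h later place the 2 h values in time. In the order before, right after, 2 h and 24 h, TIPARP was at 63.1, 69.1, 458 and 79.0 CPM in replicate 1 and at 62.7, 61.2, 390 and 94.7 CPM in replicate 2. NR4A1 was at 13.7, 12.4, 326 and 7.86 CPM in replicate 1 and at 12.4, 15.5, 75.9 and 9.11 CPM in replicate 2. CCN1 was at 26.8, 37.1, 554 and 29.2 CPM in replicate 1 and at 24.2, 15.7, 91.2 and 19.9 CPM in replicate 2. These genes peaked at 2 h among the 4 times sampled in both replicates. CYP1B1 was still at 130 and 242 CPM at 24 h, above both libraries before NEE, and HILPDA at 137 and 89.2 CPM, below both.

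**Figure D5:**
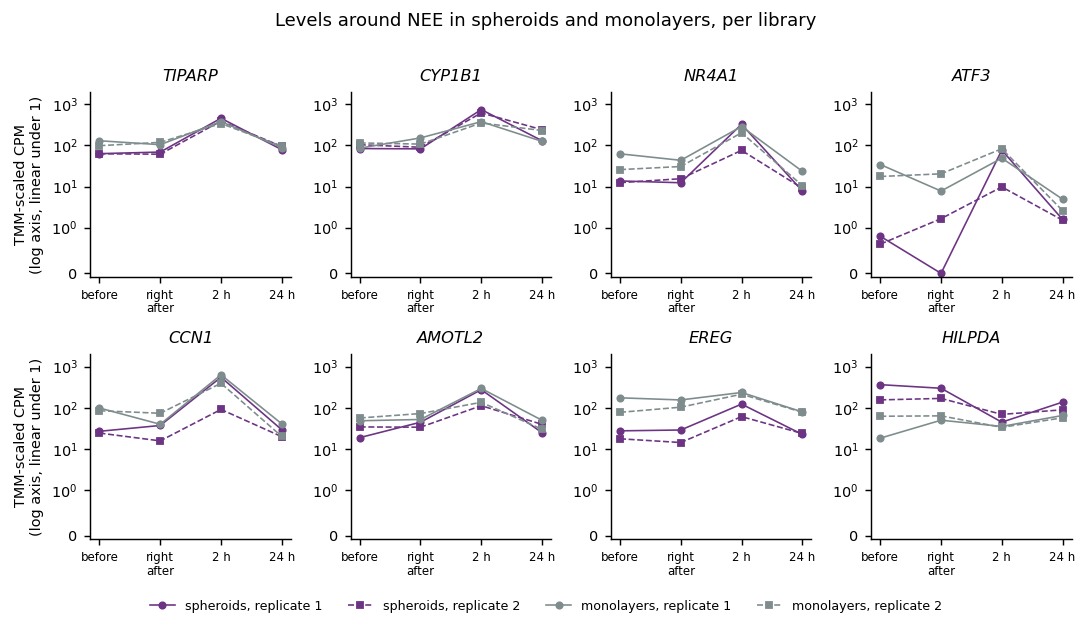
Levels of 8 genes at 4 times (before NEE and right after, 2 h after and 24 h after it) in spheroids (purple) and monolayers (grey), replicate 1 with circles and solid lines and replicate 2 with squares and dashed lines, in TMM-scaled CPM on a log axis that is linear under 1. TIPARP, CYP1B1, NR4A1 and CCN1 are highest at 2 h in each spheroid replicate; ATF3 is far lower in spheroids than in monolayers before NEE.

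Whether spheroids and monolayers differed in their change at 2 h was asked with an interaction term. No gene was called by edgeR (0.0%). At an edgeR p under 0.05 before adjustment, 179 genes were above 0 (1.35%) and 124 below (0.934%). DESeq2 called 4 genes above 0 (0.0301%), which were CRYBG1, FOSB, ZBTB37 and ATP10A. Of these, CRYBG1, FOSB and ATP10A were kept solely through the 2 h libraries. The direction of their change in spheroids was thus set by the rule for keeping genes. For TIPARP the log2 fold change was 2.75 in spheroids and 1.66 in monolayers (interaction 1.09, edgeR adjusted p = 1). FOSB was at 39.4 and 41.1 CPM in monolayers at 2 h, against 13.1 and 3.82 CPM before, and ATF3 at 49.1 and 83.1 CPM, against 34.4 and 17.6 CPM. Both genes were thus on in monolayers before NEE and at or under 1 CPM in spheroids before NEE. MYC, with 218 and 180 CPM in monolayers at 2 h against 259 and 127 CPM before, overlapped there (interaction 1.48, edgeR adjusted p = 1). Of the 116 genes well separated upward in spheroids, 72 (62.1%) had a fitted change above 0 in monolayers, against 47.2% of all genes, and 11 were well separated upward there, against 0.377% of all genes. Of the 63 separated downward, 19 (30.2%) had a fitted change above 0 in monolayers.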

How the data were processed

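RNA from A549 spheroids and monolayers was sequenced from Smart-Seq2 libraries, per the labels' protocols. The deposited files hold raw gene counts, 1 file per library. The submitters' processing notes name FastQC, Trimmomatic, HISAT2, featureCounts and the build GRCh38. Tool versions, strandedness and the treatment of multi-mapping reads are not given in those notes or labels, so near-identical copies and overlapping genes are uncertain. Coding type and coordinates come from GENCODE release 29, which placed 58207 of the 62700 genes.

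Counts of the 16 lysates in 8 groups were fitted with edgeR 4.0.16 in R 4.3.3 (TMM, robust quasi-likelihood, 8 residual degrees of freedom, biological coefficient of variation 0.409, Benjamini-Hochberg adjustment over 13270 genes, threshold 0.05). DESeq2 1.42.0 was an alternative. SE is the log2 fold change divided by the square root of F. Where a group was left with 1 library, it was assumed to vary like the others. The fit was tested on simulated data. No lysate pair of 120 was a duplicate (lowest mean chi-square per gene 17.2 over genes with at least 20 counts). Libraries were paired by the labels' batch tag, which gives the replicate number, and whether it marks a shared culture day or processing batch is not known. Deviations of same-numbered libraries correlated at −0.27 to 0.49 over 28 pairs of groups (0.19 for 2 h with before).

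Named were coding genes that averaged 5 CPM or more in either group: the 12 of smallest p and the 10 of largest non-overlapping change in each direction. Added were 6 given genes and list members well separated or with an unadjusted p under 0.05, or else the member of smallest p. Further list members were named after their values were seen. Members and lists were chosen with earlier results of these data known. Alternatives were other scalings, filters, sample sets, pseudocounts, thinning to 16031034 counts, the replicate block and leaving out each library. Promoters are RefSeq's. Python 3.11.15, pandas 2.3.3, numpy 2.4.6 and matplotlib 3.10.9 were used. Some items are not reported here.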

Additional observations from a re-analysis of the deposited data

Results flagged for a closer look

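Of 104 genes named by the rules above, 6 had both 2 h libraries above both libraries before NEE in one culture and below them in the other. Among all genes, 14.6% did not overlap upward in spheroids and 15.0% downward. The share of all genes with opposite directions in the cultures was not counted, so the 6 are a description only. The interaction term of edgeR called none of them (adjusted p = 1 for each). CRYBG1, a crystallin-domain protein, stood at 5.51 and 6.22 CPM in spheroids at 2 h against 0.116 and 0.349 CPM before, and at 0.884 and 0.297 CPM in monolayers at 2 h against 10.4 and 2.95 CPM before (interaction 8.11 on the log2 scale, DESeq2 adjusted p = 0.0255). CRYBG1 was kept solely through the spheroid libraries at 2 h, so its direction in spheroids was set by the rule for keeping genes. Its highest value is in replicate 1 of the monolayers before NEE, the library with natural killer and T cell transcripts. Their part in this value was not tested.

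CCND1, which encodes cyclin D1, stood at 173 and 195 CPM in spheroids at 2 h against 42.9 and 124 CPM before, and at 237 and 255 CPM in monolayers at 2 h against 275 and 319 CPM before (interaction 1.42). OAS3 stood at 40.8 and 43.2 CPM in spheroids at 2 h against 57.2 and 64.4 CPM before, and at 125 and 132 CPM in monolayers at 2 h against 84.6 and 73.4 CPM before (interaction −1.23). The remaining interactions were 1.07 for AEN, an exonuclease induced by p53, 1.49 for MTF1, the metal-responsive factor, and −1.01 for COQ8B, of coenzyme Q synthesis.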

How the results depend on the processing

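The number of genes called higher at 2 h was 44 without a filter on low counts, 26 with DESeq2, 5 with the replicate block within culture, 1 in the 8 spheroid libraries alone and 0 in the 4 libraries alone. It ranged from 1 to 7 with each of the 4 libraries left out. It stayed at 2 with both other scalings, the stricter and the edgeR filter, all 19 libraries and the replicate block over all cultures, which changed no other call. The number called lower was 12 without a filter, 8 with DESeq2 and 0 to 1 with each library left out. The interaction gave 35 genes without a filter, 4 with DESeq2 and 0 to 2 with each library left out, the 2 (LCP1 and PRF1) without replicate 2 of the monolayers before NEE, when that group rests on replicate 1. With an added 5 CPM in place of 0.5, 21 genes were separated upward and 3 downward, and with the stricter filter 57 and 15. With each library left out, alternatives chosen after seeing the data, these counts ranged from 219 to 696 upward and from 227 to 342 downward, as 1 library then stands for a group. The causes of the other moves were not tested. Log2 fold changes of the 6 given genes kept their direction in each of the 19 alternatives. In each of these genes both 2 h libraries lay above both libraries before NEE, so leaving out a library could not reverse them. The kept direction is thus no test of these genes.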
